A study of Mus musculus with 2 samples.

Results

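Interferon response genes were examined in mouse embryonic stem cells after knockdown of the long noncoding RNA LincU. The 38 members are RNA sensors, signalling factors and antiviral effectors of the interferon system, taken from array probes that carry these gene names, out of 37058 gene names with a probe. Probes were found for 37 members, 65 probes in all, and no probe was named Ifitm2. Of the 37, 27 were well above background on both arrays, 3 on the shCtrl array only and 7 on neither. The members were chosen by gene name.

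The cells were of the line 46C, an embryonic stem cell line with a green fluorescent reporter at Sox1, grown with serum and the cytokine LIF on feeder cells that were taken off before harvest. The tested cells carried a short hairpin RNA against LincU (shLincU) and their control is given as shCtrl in the genotype label and as WT in the title. Each group is 1 one-colour array of total RNA, so no value has a replicate, no test between the groups was possible and no p-value is given. LincU itself was not analysed here, and every direction rests on the array labels.

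Cells recognise viral RNA through the receptors RIG-I, MDA5 and TLR3, which signal through adaptor proteins to the transcription factors IRF3 and IRF7 and so switch on the type I interferon genes. Secreted interferon then acts through its receptor and the kinases JAK1 and TYK2 on a complex that holds STAT2 and IRF9 and binds the interferon-stimulated response element of many target genes. Pluripotent stem cells are known to make little interferon and to respond to it weakly, while they hold some antiviral effectors, such as the IFITM proteins, at high levels without any stimulus.

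Signals are given as relative signals, the processed intensity divided by the 75th percentile of the same array, which was 420 intensity units for shLincU and 626 for shCtrl. Differences are on the log2 scale, shLincU minus shCtrl, averaged over the probes of a gene that were well above background on both arrays. The error given after a difference is the one the scanner software assigns, about 0.20 for a single bright probe. For a gene with several probes, the errors of the probes were combined as if independent, which makes it smaller. The error comes mostly from a preset and is not a measured spread between samples. On the shLincU array 57.9% of 56605 probes were well above background, against 60.9% on the shCtrl array, and no spot was saturated.

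Most interferon genes measured on both arrays lay within 0.5 of 0, though by a smaller share than among all genes. More of the members were above than below 0 in the shLincU cells, with a few further out in both directions. Of the 27 members measured on both arrays, 20 were above 0 in the shLincU cells (74.1%), where 53.1% of the 21042 genes measured on both arrays were. The share was 77.8% against 64.0% of all genes with normexp background correction, and without a background filter it was 62.2% against 63.4%, so that the members no longer lay above all genes. Their median difference was 0.17, against 0.020 for all genes. Of the 27, 19 lay within 0.5 of 0, a smaller share than the 86.6% of all genes. The median absolute difference was 0.22 for the members and 0.19 for all genes. Gbp2 and Oasl2 were at least 2-fold higher, where 1.15% of all genes were, and Xaf1 was at least 2-fold lower, where 1.54% were (2.69% in either direction). At 1.5-fold, 5 members were higher and 1 was lower, with 4.78% and 4.85% of all genes beyond that size. With signals scaled to spike-in RNA in place of the 75th percentile, all genes moved down together by 0.89, so every direction here is relative to most other genes.

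**Figure D1:**
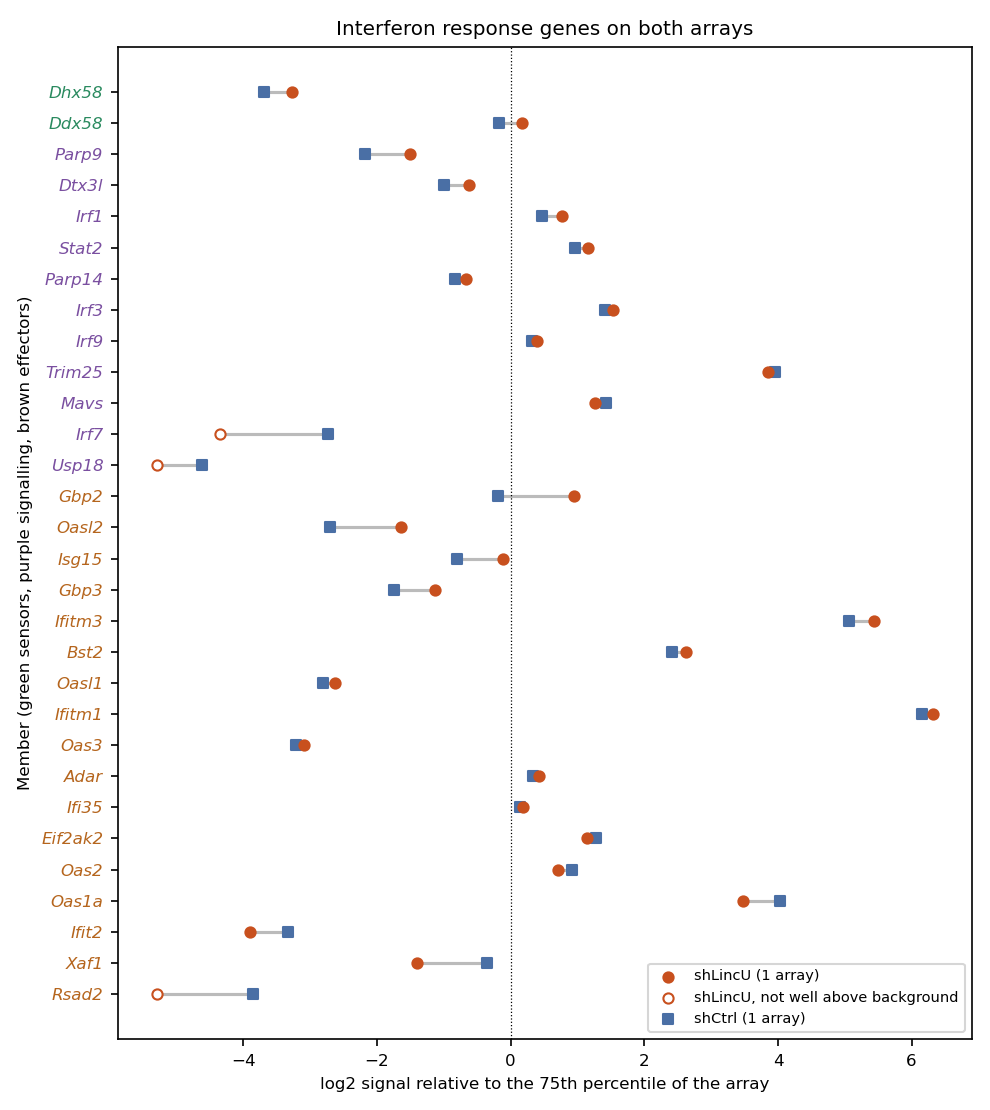
Log2 relative signal of the 30 members detected on at least 1 array (x axis), with shLincU as circles and shCtrl as squares. Gene names are coloured by role and open circles mark members not well above background on the shLincU array. The pairs lie close together for most members, with wider gaps at Gbp2 and Oasl2 (shLincU to the right) and at Irf7, Rsad2 and Xaf1 (shLincU to the left).

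Of the 4 sensors, only Ddx58 and Dhx58 were measured on both arrays. Ddx58, which encodes RIG-I, the cytosolic receptor for RNA with a 5′ triphosphate, had a relative signal of 1.13 in shLincU cells and 0.883 in shCtrl cells. The shLincU array was the higher by 0.35 ± 0.14 on the log2 scale, and the 3 probes that were measured ran from 0.29 to 0.46. A further probe of Ddx58, at 0.0379 in shLincU cells and 0.0508 in shCtrl cells, was above background on the shCtrl array only and lay beside other spots that differed between the arrays. It was left out of the mean, and with a looser detection flag that admits it Ddx58 was at 0.16.

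Dhx58 encodes LGP2, a relative of RIG-I that lacks the signalling domain and tunes the other receptors. It had 0.103 in shLincU cells against 0.0774 in shCtrl cells, a difference of 0.42 ± 0.29 on 1 probe near the detection limit. Both measured sensors were therefore the higher ones in shLincU cells, by less than 1.5-fold each.

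Ifih1, which encodes MDA5, the receptor for long double-stranded RNA, was not well above background on either array. Its probes read 0.0102 and 0.0101 in shLincU cells, and 0.0252 and 0.00786 in shCtrl cells. Tlr3, the endosomal receptor for double-stranded RNA, read 0.0102 and 0.0108 on its probes in shLincU cells, and 0.00911 and 0.0171 in shCtrl cells. The lowest signal that counted as well above background was 0.0493 for shLincU and 0.0380 for shCtrl, so these readings bear no order and no fold is given.

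Signalling factors numbered 11, and the 9 measured on both arrays had a median difference of 0.17, with 7 above 0 and none at least 2-fold apart. Mavs, the mitochondrial adaptor on which RIG-I and MDA5 converge, had 2.41 in shLincU cells against 2.68 in shCtrl cells (-0.15 ± 0.20). Trim25, a ubiquitin ligase that acts on RIG-I, had 14.4 in shLincU cells against 15.5 in shCtrl cells (-0.10 ± 0.12), with its 3 probes between -0.19 and 0.043. For the adaptor and the ligase the arrays thus differed by less than the scanner's own error.

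The interferon regulatory factors were measured in part. Irf3, the factor that is phosphorylated once the sensors fire, had 2.89 in shLincU cells against 2.65 in shCtrl cells (0.13 ± 0.14). Irf1, a factor of the interferon gamma response, had 1.71 in shLincU cells against 1.38 in shCtrl cells (0.30 ± 0.15), and its probes gave 0.30 and 0.31. Irf1 thus had the larger difference of these 2, but the scanner's error measures no spread between samples.

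Irf9 and Stat2, parts of the complex that carries the type I interferon signal to the nucleus, were near level between the arrays. Irf9 had 1.31 in shLincU cells against 1.25 in shCtrl cells (0.072 ± 0.14). Stat2 had 2.22 in shLincU cells against 1.95 in shCtrl cells (0.19 ± 0.20). A second Stat2 probe, above background on the shLincU array only, read 0.0694 there and 0.0396 in shCtrl cells, and taking it in moved Stat2 to 0.50.

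Irf7, the factor that amplifies interferon production and is itself induced by interferon, was seen on the shCtrl array only. Its probe read 0.0493 in shLincU cells, at the detection limit, and 0.150 in shCtrl cells. The shLincU reading lay just over the limit, so the bound for Irf7 is the ratio of its own readings. That ratio was 3.04-fold, lower in shLincU cells, a log2 difference of -1.60 ± 0.39, and it is not a sure minimum. Of all genes with a probe, 4.53% were seen on the shCtrl array only, and 0.718% with a bound of at least 2-fold. The second Irf7 probe was below background on both arrays.

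Usp18, which strips ISG15 from proteins and damps signalling at the interferon receptor, was likewise seen on the shCtrl array only. It read 0.0256 in shLincU cells and 0.0407 in shCtrl cells. The reading of the control lay under the detection limit of the shLincU array, so no bound on the fold could be given.

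Parp9, Dtx3l and Parp14 lie next to each other on chromosome 16 and work in ADP-ribosylation linked to interferon signalling, PARP9 and the ubiquitin ligase DTX3L as a complex. Parp9 had 0.354 in shLincU cells against 0.220 in shCtrl cells (0.69 ± 0.15). Dtx3l had 0.652 in shLincU cells against 0.502 in shCtrl cells (0.38 ± 0.16). Parp14 had 0.629 in shLincU cells against 0.560 in shCtrl cells (0.17 ± 0.15).

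All 3 were above 0, but the probes of each gene went apart. The Parp9 probes gave 1.34, 0.45 and 0.27, the widest range of any member, and the brightest of them, at chr16:35972577-35972636 in mm9, the build of the array, was the one at 0.27. The Dtx3l probes gave 0.69 and 0.063, and those of Parp14 gave 0.36 and -0.019. With the brightest probe of each gene alone, Parp9 was at 0.27, Dtx3l at 0.063 and Parp14 at -0.019.

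**Figure D2:**
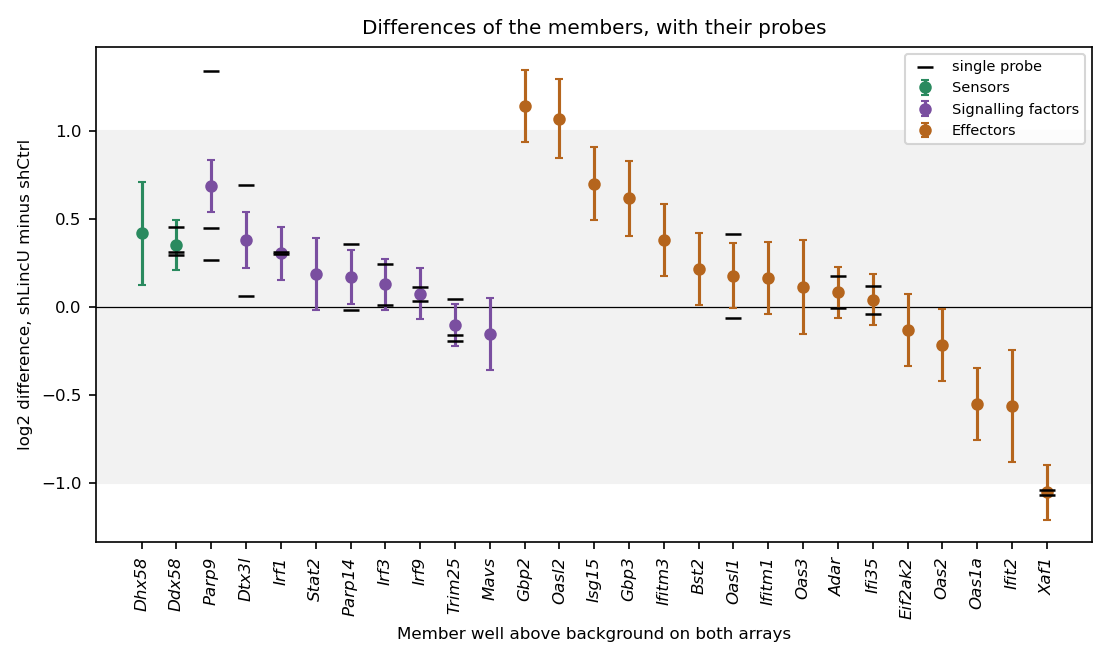
Log2 difference, shLincU minus shCtrl, of the 27 members measured on both arrays (y axis), grouped by role. Circles are gene values with the error of the scanner software as bars, black dashes are single probes where a gene has several, and the grey band spans 2-fold in both directions. Gbp2 and Oasl2 lie above the band and Xaf1 below it with both of its probes, while a single Parp9 probe stands at 1.34.

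Effectors, the proteins that act on viruses and infected cells, spread furthest. Of 23, 16 were measured on both arrays, with a median of 0.14 and values from -1.05 to 1.14, and 11 of the 16 were above 0. The core promoters of the 5 effectors that the account below turns on are shown first, to let them be searched for the response element of the type I interferon signal. They are RefSeq windows in the build GRCm38.p6, from 250 bases before to 50 bases after the gene start, read 5′ to 3′ on the strand of the gene. Capitals mark each match to 2 copies of GAAA with 2 bases between them, the core of the interferon-stimulated response element, on either strand, with overlapping matches run together.

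Gbp2 (chr3:142620413-142620712, forward strand): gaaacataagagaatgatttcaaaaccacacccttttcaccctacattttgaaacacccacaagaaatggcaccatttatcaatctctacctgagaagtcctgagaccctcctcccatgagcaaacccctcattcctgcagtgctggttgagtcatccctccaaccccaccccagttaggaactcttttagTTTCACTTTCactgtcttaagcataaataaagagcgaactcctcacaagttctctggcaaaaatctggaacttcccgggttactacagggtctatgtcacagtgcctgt
Oasl2 (chr5:114896684-114896983, forward strand): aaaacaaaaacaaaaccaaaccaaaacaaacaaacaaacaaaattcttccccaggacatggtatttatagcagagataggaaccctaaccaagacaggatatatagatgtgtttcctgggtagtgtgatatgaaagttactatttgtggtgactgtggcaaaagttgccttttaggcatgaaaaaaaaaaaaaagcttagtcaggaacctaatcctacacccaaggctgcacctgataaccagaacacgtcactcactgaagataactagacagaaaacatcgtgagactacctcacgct
Isg15 (chr4:156200769-156201068, reverse strand): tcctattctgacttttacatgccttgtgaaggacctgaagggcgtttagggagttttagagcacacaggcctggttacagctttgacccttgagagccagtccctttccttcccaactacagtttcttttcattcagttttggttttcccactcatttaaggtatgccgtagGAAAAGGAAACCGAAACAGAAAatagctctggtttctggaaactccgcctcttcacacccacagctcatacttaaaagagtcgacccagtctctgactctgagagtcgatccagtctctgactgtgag
Oas1a (chr5:120907476-120907775, reverse strand): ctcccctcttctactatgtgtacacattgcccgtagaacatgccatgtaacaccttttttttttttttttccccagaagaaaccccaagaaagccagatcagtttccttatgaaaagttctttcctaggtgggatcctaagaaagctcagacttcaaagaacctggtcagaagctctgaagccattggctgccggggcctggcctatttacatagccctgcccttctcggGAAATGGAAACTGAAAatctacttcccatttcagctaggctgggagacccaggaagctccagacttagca
Xaf1 (chr11:72301379-72301678, forward strand): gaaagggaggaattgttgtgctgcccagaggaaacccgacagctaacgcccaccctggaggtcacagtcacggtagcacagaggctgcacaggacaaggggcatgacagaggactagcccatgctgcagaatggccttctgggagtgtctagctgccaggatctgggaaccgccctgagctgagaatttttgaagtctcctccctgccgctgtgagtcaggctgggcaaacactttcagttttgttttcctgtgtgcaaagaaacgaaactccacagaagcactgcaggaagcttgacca

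The Gbp2 window held 1 match, 59 bases before the start, the Isg15 window 3 overlapping matches from 78 bases before it, and the Oas1a window 2 overlapping matches from 20 bases before it. No match was found in the windows of Oasl2 and Xaf1, which says only that these letters are not there. Windows were found for 31 members, and 15 of them (48.4%) held a match, against 3.99% of all 27025 genes with a window. The members were listed as interferon genes, so this excess can follow from the choice and says nothing of the knockdown. The 10 measured members with a match had a median difference of 0.28, with 8 above 0, and the 13 without one had a median of 0.084, with 9 above 0. Both sets spanned 0, from -0.55 to 1.14 with a match and from -1.05 to 1.07 without. Dhx58, Parp9, Parp14 and Oas2 were measured but had no window, so they are in neither set. The letters TTCNNNGAA, the core of the gamma-activated site, were in the windows of 8 members (25.8%), among them Irf1, and of 9.55% of all genes. For these letters the order was the other one, with a median of 0.061 and 5 above 0 among the 8 measured members with a match, and a median of 0.18 and 12 above 0 among the 15 without.

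Guanylate-binding proteins are large GTPases that interferon gamma induces and that attack the vacuoles of intracellular pathogens. Gbp2 had 1.94 in shLincU cells against 0.879 in shCtrl cells, a difference of 1.14 ± 0.20. Gbp3, its neighbour on chromosome 3, had 0.456 in shLincU cells against 0.298 in shCtrl cells (0.61 ± 0.21). Gbp2 was the member furthest up, 179th from the top of the 21042 genes, and it was measured by a bright spot, a range in which 0.827% of genes were 2-fold apart against 4.54% of dimmer genes. Both rest on 1 probe each in the upper rows of the array.

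The oligoadenylate synthetases make the messenger that activates RNase L, which cuts RNA in infected cells. Oasl2, a family member with ubiquitin-like domains, had 0.321 in shLincU cells against 0.153 in shCtrl cells (1.07 ± 0.22), a 2.10-fold difference on 1 probe. Its neighbour Oasl1, which in mice restrains the translation of Irf7, had 0.161 in shLincU cells against 0.143 in shCtrl cells (0.18 ± 0.18), with probes at 0.42 and -0.064. Oasl1 differed by less than its scanner error and Oasl2 by more, but neither error measures spread between samples. With normexp background correction Oasl2 was at 0.80.

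Oas1a ran the other way. It had 11.1 in shLincU cells against 16.3 in shCtrl cells, a difference of -0.55 ± 0.20. Oas2 had 1.63 in shLincU cells against 1.90 in shCtrl cells (-0.22 ± 0.20), with a second probe below background on both arrays. Oas3 had 0.117 in shLincU cells against 0.108 in shCtrl cells (0.11 ± 0.27). The Oas1 genes are related in sequence, so the Oas1a probe may hold signal of its relatives, which was not tested. Its value is therefore uncertain as that of a single gene.

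Xaf1, an antagonist of the apoptosis inhibitor XIAP, had the most negative difference of the 27 members measured on both arrays. It had 0.378 in shLincU cells against 0.784 in shCtrl cells, a difference of -1.05 ± 0.16, which is 2.07-fold lower in shLincU cells. The 2 probes measured on both arrays gave -1.04 and -1.07, and they lay in different parts of the array, at chr11:72127175-72127234 (mm9, upper rows) and chr11:72122169-72122228 (mm9, lower rows). Of the 21042 genes, 287 were as low or lower. Xaf1 was among the dimmer genes, under the median level, of which 4.54% were 2-fold apart in either direction. With normexp background correction Xaf1 was at -0.74, and at -0.58 when a further probe below background on both arrays was averaged in.

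Isg15, the ubiquitin-like protein that is attached to other proteins after interferon, had 0.929 in shLincU cells against 0.572 in shCtrl cells (0.70 ± 0.21). Among the IFIT genes, Ifit2 alone was measured, with 0.0670 in shLincU cells against 0.0990 in shCtrl cells. Its difference of -0.56 ± 0.32 carried the largest scanner error of the 27 members, and with normexp background correction it was 0.14, on the other side of 0. Ifit1 read 0.0113 in shLincU cells and 0.0122 in shCtrl cells, and Ifit3 read 0.00987 and 0.0301 in the same order, all below background. Isg15 and the IFIT genes, often read together as interferon targets, thus gave 1 member higher, 1 without a settled direction and 2 below detection.

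Effectors that act at membranes were bright on both arrays. Ifitm1, an IFITM protein that blocks the entry of viruses, had 80.0 in shLincU cells against 71.4 in shCtrl cells (0.16 ± 0.20). Ifitm3, known as a marker of germ cell precursors and stem cells as well as an antiviral protein, had 43.5 in shLincU cells against 33.5 in shCtrl cells (0.38 ± 0.20). Bst2, which encodes tetherin, the protein that holds budding virus at the cell surface, had 6.17 in shLincU cells against 5.31 in shCtrl cells (0.21 ± 0.20). All were higher in shLincU cells, by less than 1.5-fold each.

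Eif2ak2, Adar and Ifi35 differed by less than their scanner errors. Eif2ak2, the kinase PKR that stops translation, had 2.21 in shLincU cells against 2.43 in shCtrl cells (-0.13 ± 0.20). Adar, which edits adenosines in double-stranded RNA and so hides it from the sensors, had 1.34 in shLincU cells against 1.26 in shCtrl cells (0.084 ± 0.14). Ifi35, a partner of the interferon-induced protein NMI, had 1.13 in shLincU cells against 1.103 in shCtrl cells (0.039 ± 0.15), with probes on either side of 0.

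Rsad2, which encodes viperin, an enzyme that makes a chain-terminating nucleotide, was seen on the shCtrl array only. It read 0.0255 in shLincU cells and 0.0692 in shCtrl cells, which makes it at least 1.40-fold lower in shLincU cells. Mx1 and Mx2, dynamin-like GTPases against RNA viruses, and Ifi44 were below background on both arrays. Ifi44 read 0.0112 and 0.0101 on its probes in shLincU cells, and 0.0187 and 0.0138 in shCtrl cells. Mx1 read 0.0113 and 0.0124 on its probes in shLincU cells, and 0.00853 and 0.00775 in shCtrl cells. The 3 members seen on one array only, Irf7, Usp18 and Rsad2, were all seen on the shCtrl array, where 1678 genes were, against 572 genes seen on the shLincU array only. The detection limit was higher on the shLincU array, and its part in this was not tested.

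**Figure D3:**
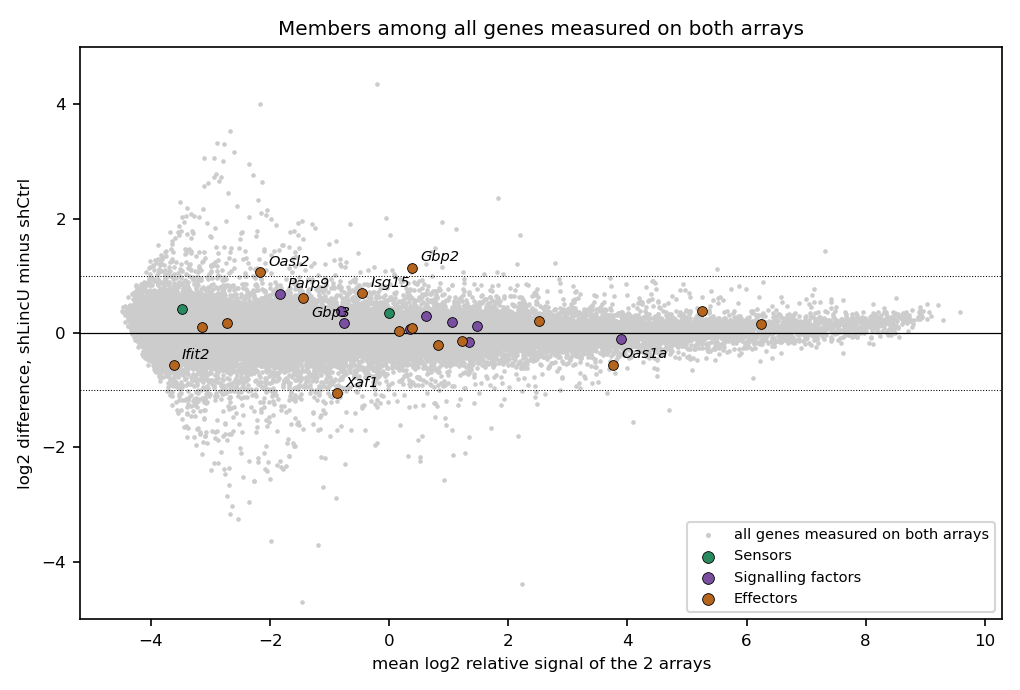
Log2 difference, shLincU minus shCtrl (y axis), against the mean log2 relative signal of both arrays (x axis) for all 21042 genes measured on both arrays (grey) and the 27 members (coloured by role). Dotted lines mark 2-fold. Gbp2 and Oas1a stand at the edge of the grey band at higher signal, where genes spread less, while Oasl2 and Ifit2 lie where dim genes spread widely.

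Probes of the same member can be set against each other as a check. In 12 members with several measured probes the median range between probes was 0.21, against 0.29 over 7132 genes with several measured probes. In 5 of the 12 members the probes took different signs, as in 3357 of the 7132 genes, and Parp9 was the only member with a range over 1, where 354 of the 7132 genes were. None of the 42 member probes measured on both arrays lay beside spots that differed at least 2-fold in the same direction, and none was marked as an outlier.

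The rest of the pathway was read from lists chosen by function. Of 19 interferon ligands, 6 alpha-type genes were measured on both arrays, with a median of -0.0028, while Ifnb1, Ifng, Ifne and Ifnk were below background on both. Ifna9 was at 0.63, Ifnab at -0.31 and Ifna1 at -0.23, all from dim probes of a multicopy family whose members can share signal. Among receptors and kinases, all 8 with a probe were measured and lay within 0.5 of 0, with a median of -0.053. Ifngr2, a chain of the interferon gamma receptor, was at 0.41, Ifnar2, a chain of the type I receptor, was at -0.23, and Il10rb, a chain of the interferon lambda receptor, was at -0.14.

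Among 13 other sensors and relays measured, the median was -0.089 and none was 2-fold apart. Zbp1, a sensor of left-handed nucleic acid, had 0.174 in shLincU cells against 0.320 in shCtrl cells (-0.87), the kinase Tbk1 was at -0.47, and Irf5 was at -0.59 with probes at -1.43 and 0.24. Ikbke, a kinase related to Tbk1, was seen on the shCtrl array only, with no bound. The 13 measured genes of feedback and restraint had a median of 0.012, with Pias1 at -0.52, Ptpn6 at 0.33 and Rnf125 at -0.18.

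Other interferon-stimulated genes went both ways. Of 46 listed, 32 were measured, with a median of -0.021 and 15 above 0. Gbp5 and Psmb8 were higher by 2-fold or more and Lgals3bp was lower by as much. Gbp5 had 0.633 in shLincU cells against 0.271 in shCtrl cells (1.22), but its probes gave 2.35 and 0.096. Psmb8, a subunit of the immunoproteasome, had 0.857 in shLincU cells against 0.382 in shCtrl cells (1.17). Lgals3bp, a secreted galectin-binding protein, had 0.111 in shLincU cells against 0.299 in shCtrl cells (-1.43). Gbp7 was seen on the shLincU array only, at least 4.23-fold higher there. Seen on the shCtrl array only were Ccl5, at least 2.28-fold lower in shLincU cells, Ifi47, at least 1.18-fold lower, and Cmpk2, with no bound.

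**Figure D4:**
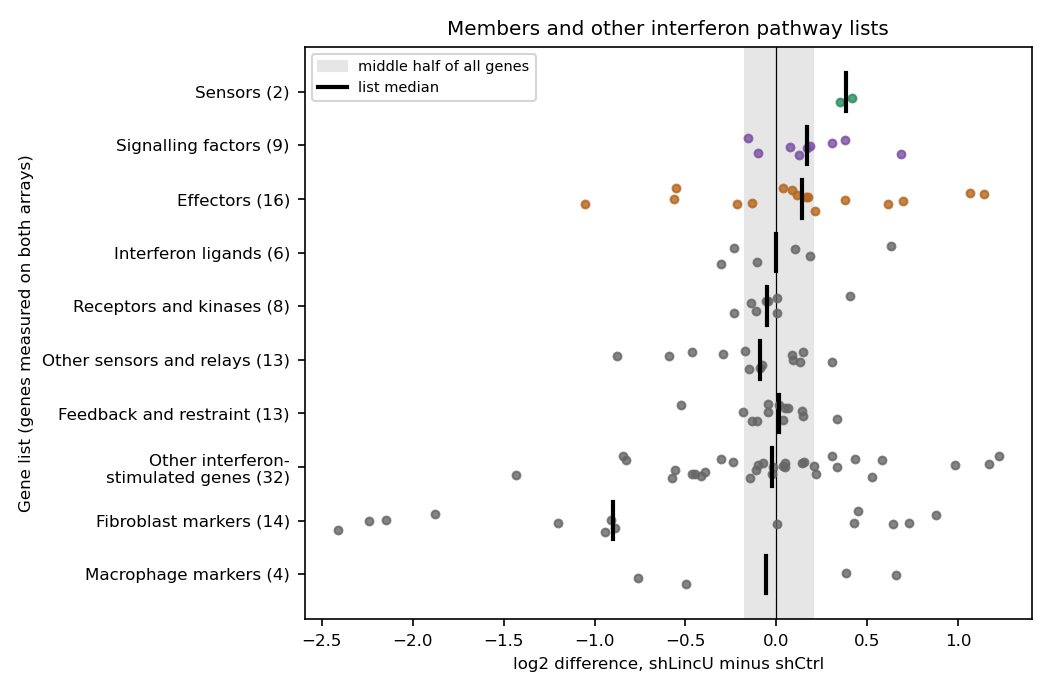
Log2 difference, shLincU minus shCtrl (x axis), of the genes measured on both arrays in each list (rows, number of genes in brackets). Points are genes, black bars list medians, and the grey band the interquartile range of all genes. The member lists lean to the right with medians from 0.14 to 0.38, the other interferon lists centre near 0, and the fibroblast markers spread widely around a median of -0.90.

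Markers of other cells were read beside these genes, since feeder fibroblasts and immune cells express interferon genes too. All 10 stem cell markers were measured and within 0.5 of 0, with a median of 0.0073. Of 15 fibroblast markers 14 were measured on both arrays, with a median of -0.90, 5 at least 2-fold lower and 6 above 0, and Lum was seen on the shLincU array only, at least 2.32-fold higher there. The summed relative signal of the 14 was 41.0 in shLincU cells and 35.5 in shCtrl cells, most of it from Tagln at 30.1 and 16.3 in the same order. Dcn read 0.104 in shLincU cells and 0.554 in shCtrl cells, and Ccl2, itself a chemokine that interferon can induce, 0.662 and 3.12 in the same order. Lox read 0.147 in shLincU cells and 0.652 in shCtrl cells. Of the macrophage markers 4 were measured, with a summed signal of 3.14 in shLincU cells and 3.38 in shCtrl cells, and they went apart, with Cd68 at -0.76, Ptprc at -0.50 and Csf1r at 0.66. Adgre1 and Aif1 were below background on both arrays, and Lyz2 was seen on the shCtrl array only, at least 4.02-fold lower in shLincU cells. The part of these cells in the interferon values was not tested, and fewer cells of a kind and less RNA per cell cannot be told apart.

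How far single values hold was read from 14 other ways of processing the same arrays. Leaving aside spike-in scaling, 22 of the 27 members kept their sign in all of the other 13 settings in which they could be measured, 17 of them above 0 and 5 below. The exceptions were Ifi35, Oasl1 and Parp14, which turned negative with the brightest probe, Oas2, which was at 0.084 without a background filter, and Ifit2. Gbp2 stayed at least 2-fold higher in every setting with a value but spike-in scaling, where it was at 0.25. Many of the settings leave a gene with a single probe unchanged, so its sign in them was fixed in advance. The probe of Gbp2 gave another value only with normexp, quantile normalization, median centring, the deposited table and spike-in scaling. All settings use the same 2 arrays, so they show no spread between samples.

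**Figure D5:**
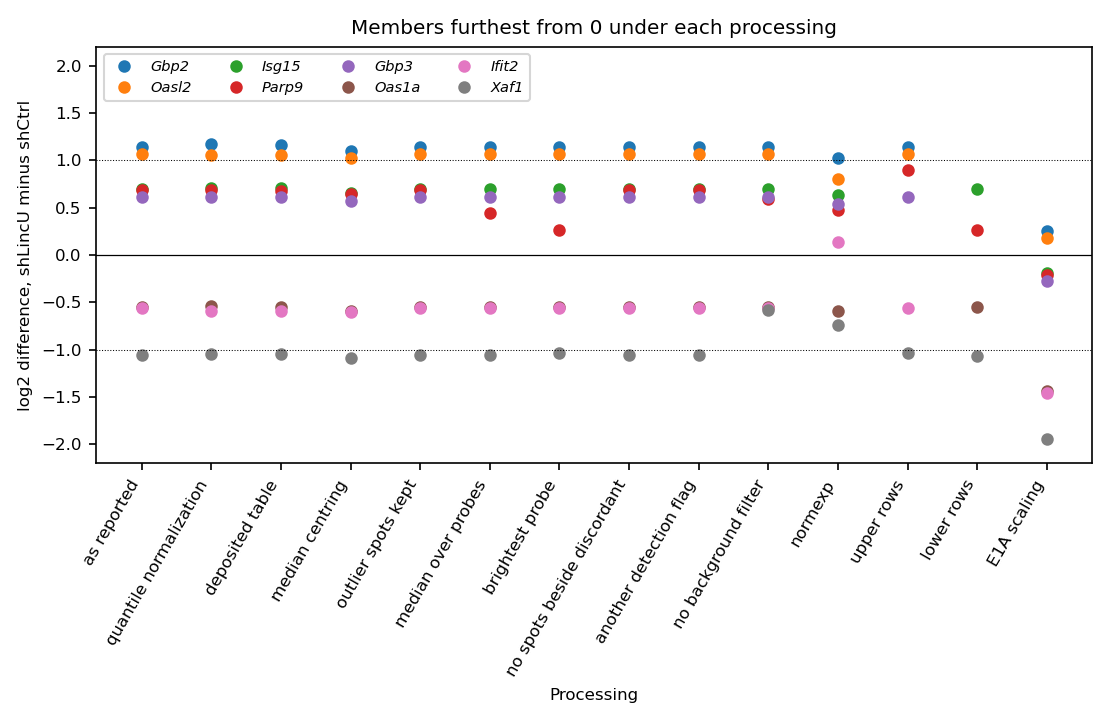
Log2 difference, shLincU minus shCtrl (y axis), of the 8 members furthest from 0 under each processing (x axis), with dotted lines at 2-fold. Points are missing where a member has no probe in a part of the array. Gbp2 stays between 1.03 and 1.17 except under E1A scaling, Xaf1 is at -0.74 with normexp and -0.58 without a background filter, and Ifit2 crosses 0 with normexp.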

How the data were processed

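RNA of 2 samples, shLincU and shCtrl, was hybridised to 1 one-colour Agilent array each. Per the submitters' processing notes, the authors extracted spots with Agilent Feature Extraction 10.7.1.1. The deposited files hold processed intensity, corrected for background and spatial trend per the file headers, uncorrected mean and background intensity, and other columns with flags of 0 or 1. The deposited value table has log2 values whose quantiles are equal between arrays, by a method not given in the sources here.

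Each array's 75th percentile, taken over probes that are no controls, was subtracted from log2 processed intensity. Control and outlier spots were left out, and spots of a probe averaged. A gene, by its array name, is the mean over probes well above background on both arrays. A gene seen on one array has a bound, set by the other array's lowest signal well above background, or the probe's own if higher. With 1 array per group, sizes of 2-fold were counted. The calculation was tested on simulated data.

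Members and lists were chosen with earlier results of these data known. All members are named, with up to 3 genes per other list of largest difference and those seen on one array. Genes below background on both arrays and Tagln were also named, after their values were seen. One gene was removed from these other lists and is not reported here. Gene families in the closing section were chosen after their values were seen. Promoters are from RefSeq (GRCm38.p6). The array rows were split at row 192 into upper and lower rows. Spots were marked as lying beside discordant ones where, of the 14 nearest, 2 or more were apart by 2-fold or more in one direction. Alternatives were normexp (offset 50), quantile normalization, median centring, E1A spike-in scaling, the deposited table, other detection filters, the brightest probe or median over probes, outlier spots kept, parts of the array, and other sizes. The software was R 4.3.3 with limma 3.58.1, and Python 3.11.15 with matplotlib 3.10.9, pandas 2.3.3 and numpy 2.4.6.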

Additional observations from a re-analysis of the deposited data

How the results depend on the processing

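No paired analysis was possible because a single array stands on either side, so leaving one out was not possible. The median of the members stayed between 0.11 and 0.19 in every setting but E1A scaling, where it was -0.72 with 7.41% of members above 0. The median of all genes was -0.87 there, with 1.52% of them above 0. Relative to all genes it was 0.15 as reported, 0.069 with normexp and -0.031 without a background filter. The count at least 2-fold higher, 2 as reported, was 5 at 1.5-fold, 0 at 3-fold, 1 with normexp, 1 among the brighter genes (those not under the median level), 0 in the lower rows, where Gbp2 and Oasl2 have no probe, and 0 with E1A scaling. Of all genes, 0.456% were at least 2-fold higher with normexp, 0.276% among the brighter genes and 0.209% with E1A scaling. The count at least 2-fold lower, 1 as reported, was 0 at 3-fold, 0 with normexp, 0 among the brighter genes, 3 with the other detection flag, which adds Irf7 and Rsad2, and 6 with E1A scaling. The share of all genes at least 2-fold lower was 1.54% as reported, 0.513% with normexp, 3.40% with the other detection flag and 32.4% with E1A scaling. Without a background filter the member lower by 2-fold was Ifit3 in place of Xaf1. Members seen on one array only, 3 as reported, were 6 with the other detection flag and 1 in the lower rows. The dim members Ifit2, Dhx58, Oas3, Oasl1 and, on the shCtrl array, Oasl2 limit what can be read.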

Other observations

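Neighbouring genes of the guanylate-binding protein family read alike on the arrays. Of the 5 genes with a probe in the cluster on chromosome 3, Gbp5, Gbp2 and Gbp2b were higher in shLincU cells by 1.22, 1.14 and 1.02, Gbp3 by 0.61, and Gbp7 was seen on the shLincU array only. Gbp2b had a relative signal of 0.761 in shLincU cells against 0.375 in shCtrl cells. All 4 measured genes stayed above 0 with normexp, quantile normalization, median centring and the deposited table, with 1 of them at least 2-fold higher under normexp, and Gbp3 was at -0.28 with E1A scaling. In the other cluster, on chromosome 5, Gbp10 was at 0.55 and Gbp4 at -0.45, and 4 genes were below background on both arrays. Gbp4 was at -0.0017 with normexp. The family was picked after its values were seen, its members resemble each other in sequence, and the Gbp5 probes disagreed, so the values are given without a test.

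The Oas1 genes on chromosome 5 showed the opposite sign. Of 8 measured, 7 were lower in shLincU cells, with Oas1h at -0.66, Oas1d at -0.58, Oas1g at -0.57, Oas1a at -0.55, Oas1f at -0.55, Oas1c at -0.31 and Oas1e at -0.14, while Oas1b was at 0.047. Oas1f had a relative signal of 4.09 in shLincU cells against 5.98 in shCtrl cells. Of all genes, 53.1% were above 0. With normexp 6 of the 8 were lower, Oas1e being at 0.17 and Oas1h at -0.028, where 64.0% of all genes were above 0. With E1A scaling all 8 were lower, but only 1.52% of all genes were above 0 there, so this was nearly fixed in advance. Probes of genes related in sequence can share signal, and whether these did was not tested. The family was picked after its values were seen.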
